A study of Mus musculus with 29 samples.

Results

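The transcription factor gene Trp53 was followed with 9 genes that regulate it or answer to it in single mouse embryos made by nuclear transfer. The 10 members were taken by symbol from the deposited count table: Trp53 itself, its inhibitors Mdm2 and Mdm4, and its targets Cdkn1a, Ccng1, Bax, Trp53inp1, Ei24, Sesn1 and Sesn2. All 10 symbols had 1 row among 24448 gene rows, and all 10 were among the 11476 genes expressed highly enough to be tested between the embryo groups. Their 10 transcripts were compared across 9 control embryos, 8 embryos treated with hydroxyurea (HU) and 12 single cumulus cells, which surround the oocyte and here gave the donor nuclei.

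Each embryo library held RNA of 1 embryo at the 2-cell stage. Oocytes of BDF1 mice, a hybrid strain, had their own chromosomes removed and received a cumulus cell nucleus. After 1 h of culture they were activated for 6 h with 10 mM strontium in the presence of 5 ug/ml CB and 2 mM EGTA, as the labels write these agents. Control embryos were cultured without HU. The HU embryos were cultured in 10 uM HU, an inhibitor of ribonucleotide reductase that slows DNA synthesis. HU was removed at 24 h, and medium free of it followed. Both groups were taken 28 h after activation. No genetic alteration is named for any group, and the strontium, CB and EGTA steps were shared by both embryo groups. The labels name no animal or culture of origin for the embryos or the cells, so p-values measure only the spread between these embryos, and the 12 cumulus cells were treated as 1 sample.

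The p53 protein is held low by ubiquitination through Mdm2 and is restrained on DNA by the related protein Mdm4. Damaged or incompletely copied DNA activates the kinases Atm and Atr, which free p53 from these inhibitors mainly through changes in the proteins, so the level of Trp53 mRNA itself need not move when the pathway acts. Free p53 then drives genes for cell cycle arrest, apoptosis and metabolic protection, Mdm2 among them, which closes a feedback loop. A 2-cell embryo still holds RNA made in the oocyte beside RNA made from the transferred nucleus, and total RNA levels do not separate these sources.

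Promoter sequences are shown first, since binding of p53 to DNA is what the targets are known to share. RefSeq start sites gave 12 windows of 300 bases (250 before the start and 50 after it, build GRCm38.p6) for 9 of the 10 members; Trp53inp1 had none. Each window was searched for the p53 response element, which is built from a pair of 10-base consensus motifs with up to 13 bases between them, on both strands (the consensus reads the same on each), allowing 1 mismatch in all. Such a pair was present in 3 of the 12 windows, those of Cdkn1a, Ccng1 and Bax, against 1.09% of 32851 promoter windows of all genes. The 250 bases before these 3 starts follow, with the matched motifs in capitals.

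Cdkn1a, chr17:29090729-29090978, plus strand: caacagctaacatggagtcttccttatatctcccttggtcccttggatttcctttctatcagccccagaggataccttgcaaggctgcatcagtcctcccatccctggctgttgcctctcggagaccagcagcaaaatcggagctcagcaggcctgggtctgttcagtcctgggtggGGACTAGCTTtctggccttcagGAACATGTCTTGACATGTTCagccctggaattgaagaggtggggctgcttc
Ccng1, chr11:40755287-40755536, minus strand: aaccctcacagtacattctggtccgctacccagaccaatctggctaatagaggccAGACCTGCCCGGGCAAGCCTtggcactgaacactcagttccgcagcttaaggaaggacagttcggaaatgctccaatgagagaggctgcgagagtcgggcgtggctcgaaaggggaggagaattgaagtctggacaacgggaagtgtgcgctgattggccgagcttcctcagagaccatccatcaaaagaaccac
Bax, chr7:45466899-45467148, minus strand: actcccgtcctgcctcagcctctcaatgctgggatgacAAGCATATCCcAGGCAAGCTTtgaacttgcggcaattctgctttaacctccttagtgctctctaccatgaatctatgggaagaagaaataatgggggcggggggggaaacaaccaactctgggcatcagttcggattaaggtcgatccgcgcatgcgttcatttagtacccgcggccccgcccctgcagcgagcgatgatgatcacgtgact

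In the Cdkn1a window a pair without mismatch, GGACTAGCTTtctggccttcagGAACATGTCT, began 73 bases before the start with a spacer of 12 bases. Windows with a pair free of mismatches made up 0.0731% of all promoter windows. Its second motif was also the first of an uninterrupted pair, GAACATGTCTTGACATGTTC, with 1 mismatch, 51 bases before the start. This start is the upstream one of 2 RefSeq starts of Cdkn1a, and the second pair lay 2841 bases upstream of the other start, whose own window held no match. The Ccng1 pair, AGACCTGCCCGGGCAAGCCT, began 195 bases before the start and had 1 mismatch. The Bax pair, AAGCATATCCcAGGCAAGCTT, began 212 bases before its start, with a spacer of 1 base and 1 mismatch. A single motif without mismatch was present in 7 of the 12 windows, against 8.36% of all windows; those of Trp53 (GGACTTGCCC), Mdm2 (GAACTTGCCT), Ei24 (GGGCATGCCC) and 1 of 2 Sesn1 windows (AAGCTTGTTT) held a single motif and no pair. Neither of the 2 Mdm4 windows nor that of Sesn2 held a match. A match describes letters in these windows only and is not a measured binding site; the known p53 elements of Mdm2, for example, lie in its first intron.

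The embryo libraries held 1801261 to 3472116 gene counts (control) and 2442541 to 3757492 (HU), and the cumulus cells 317195 to 4051494. Between 12887 and 15421 genes were detected per embryo and 4054 to 8629 per cell. All 12 markers of oocyte and early embryo were detected in every embryo, with summed levels of 3512 to 4770 CPM (gene counts scaled to a library total of 1e6) in control and 2497 to 4947 in HU embryos; 9 of the 12 were at 0 in all cumulus cells. Cumulus and granulosa markers summed to 163 to 4172 CPM in the cells, against 15.5 to 69.8 CPM in the embryos. Of these 12 markers 2 to 8 were detected per cell, and Cyp19a1 was at 0 in all cells. A list of 4 immune markers summed to 0 to 149 CPM in the cells (median 4.83), with 0 to 4 detected per cell. In the embryos the immune markers summed to 2.64 to 37.1 CPM. Endothelial markers summed to 0 to 20.1 CPM in the cells and 15.0 to 64.6 in the embryos. Whether any cell library held RNA of other cell types was not tested, and the sums over cells below include all 12. The medians of the oocyte and early embryo marker sums were 4411 CPM in control and 3507 in HU embryos, and those of the share of counts in the ribosomal RNA precursor Rn45s were 19.2% and 23.2%, with overlapping ranges and no test between the groups. A score of 8 genes of the 2-cell stage, such as Zscan4 family members (mean log2(CPM + 1)), ran from 3.73 to 7.52 in control and from 3.08 to 7.48 in HU embryos. The groups overlapped and were not tested on it, but the score left a gap between 12 embryos at 3.08 to 5.09 (8 control, 4 HU) and 5 embryos at 6.00 to 7.52 (1 control, 4 HU).

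No member passed the test between HU and control embryos. Of the 10 members, 0 reached an adjusted p under 0.05 in edgeR's quasi-likelihood test with Benjamini-Hochberg adjustment, against 0.0% of all 11476 genes tested, and 0 reached an unadjusted p under 0.05, against 5.85% of all genes (671). The smallest unadjusted p of a member was 0.184 (Sesn2). None of the members had groups that did not overlap; 2 genes of all those tested had, or 0.0174%. The levels below are CPM scaled by the trimmed mean of M-values (TMM), which corrects for library size and composition; fold changes are log2, HU minus control, with the standard error (SE) and 95% interval of the fit over all genes. Each library holds a whole embryo, labelled as 2-cell in both groups, so the levels in its single cells cannot be told apart.

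**Figure D1:**
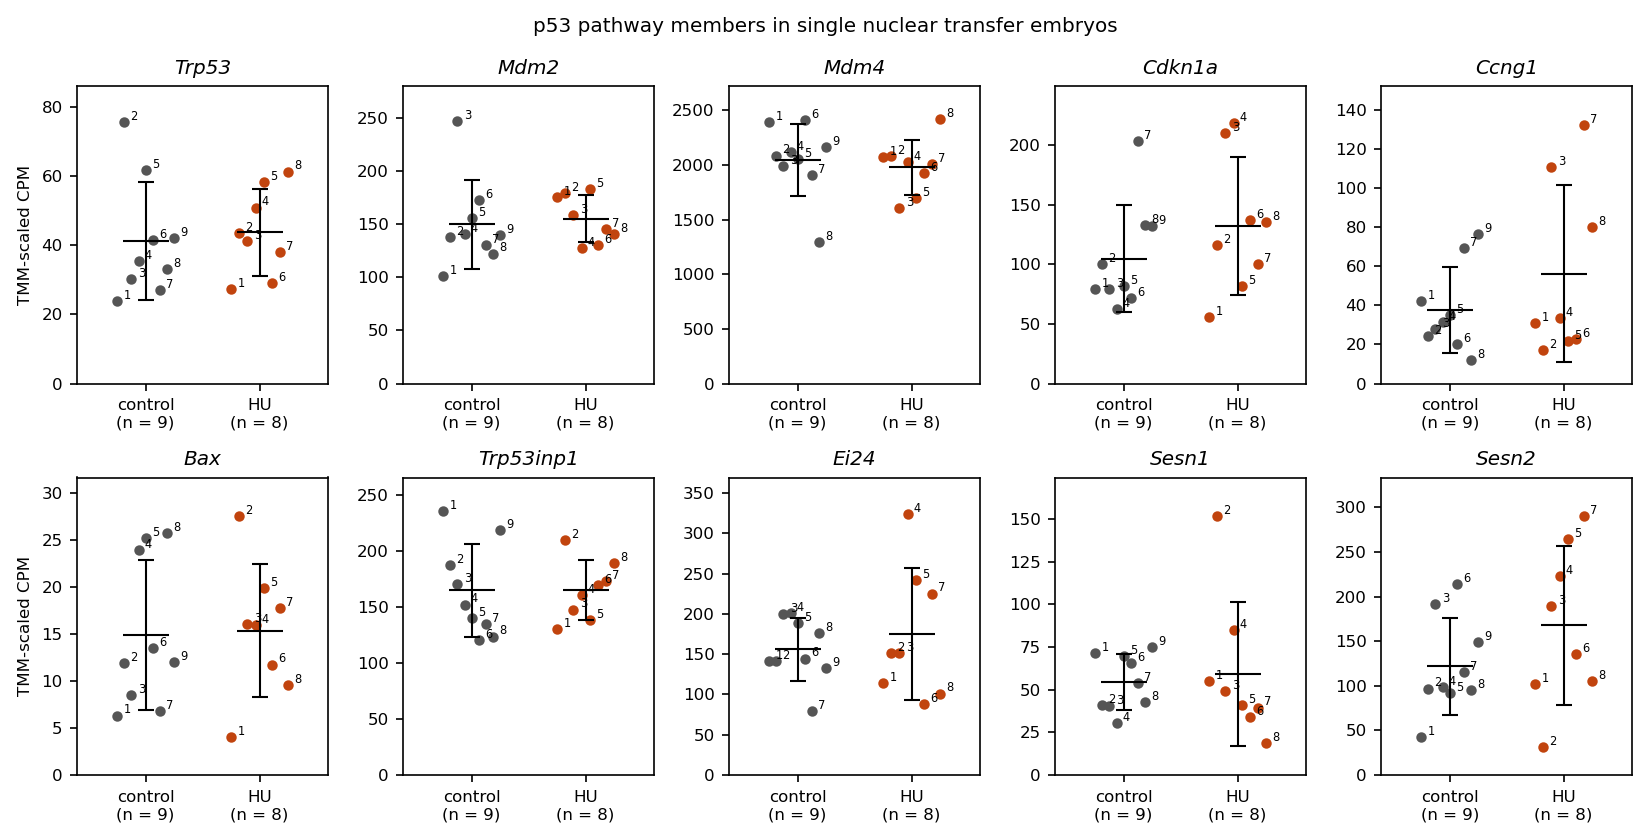
TMM-scaled CPM (vertical axes, each starting at 0) of the 10 members in 9 control and 8 HU embryos; each numbered point is 1 embryo, the horizontal bar the group mean and the error bar 1 SD. The groups overlap in every panel; HU embryos 3, 7 and 8 lie above all controls for Ccng1.

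Trp53 lies at chr11:69580359-69591873 on the plus strand (GRCm38, GENCODE M21). Its level ran from 23.9 to 75.7 CPM in control embryos, with a median of 35.4, and from 27.3 to 61.3 in HU embryos, with a median of 42.4. The 2 lowest and 2 highest embryos were all controls, so the HU range lay within the control range. The mean was 41.2 ± 17.1 (SD, n = 9) in control and 43.8 ± 12.5 (SD, n = 8) in HU embryos. For Trp53 the log2 fold change was 0.09 ± 0.26 (SE), with an interval from -0.44 to 0.62 and an adjusted p of 0.973 (edgeR). These levels rest on 53 to 178 counts per embryo.

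Of the inhibitors, Mdm4 had the higher level and the smallest variation between embryos of the 10 members, and neither inhibitor differed between the groups beyond the spread. Mdm2 (chr10:117688875-117710758, minus strand), the ubiquitin ligase of p53, ran from 101 to 247 CPM in control embryos with a median of 140, and from 128 to 183 in HU embryos with a median of 152. Control embryo 3 stood alone at 247, with the next control at 173, and all HU embryos lay within the control range. Its log2 fold change was 0.05 ± 0.17 (SE; interval -0.30 to 0.41; edgeR adjusted p 0.974). Mdm4 (chr1:132959484-133030561, minus strand), which binds p53 and blocks its activity, ran from 1299 to 2413 CPM in control embryos with a median of 2086, and from 1606 to 2419 in HU embryos with a median of 2019. One control embryo, number 8, lay below every other embryo; the other 16 embryos of the 17 ran from 1606 to 2419. Mdm4 had a log2 fold change of -0.05 ± 0.13 (SE; interval -0.32 to 0.22; adjusted p 0.969), the narrowest interval of the 10. Mdm4's variation between embryos beyond counting noise, the biological coefficient of variation (BCV) of the edgeR fit, was 0.23, lower than that of all but 0.11% of tested genes, and that of Mdm2 was 0.27, lower than all but 3.31%. These ranks are over tested genes of all levels. Genes as abundant as Mdm4 were not compared apart.

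Both arrest targets had estimates above 0, and neither passed the test. Cdkn1a (chr17:29090976-29100727, plus strand) encodes p21, an inhibitor of cyclin-dependent kinases and the best known p53 target. It ran from 62.7 to 203 CPM in control embryos with a median of 82.2, and from 55.8 to 219 in HU embryos with a median of 126. Both the lowest and the highest embryo were HU embryos, and 6 of 8 HU embryos lay above the control median. Means were 105 ± 44.7 (SD, n = 9) and 132 ± 57.7 (SD, n = 8). Cdkn1a had a log2 fold change of 0.33 ± 0.27 (SE; interval -0.23 to 0.89), with an unadjusted p of 0.235 and an adjusted p of 0.882 in edgeR. The interval thus holds no difference as well as a 1.85-fold higher level.

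Ccng1 (chr11:40748552-40755311, minus strand), which encodes cyclin G1, a regulator of the Mdm2 loop, had the largest estimate of the 10 members in the fit of all 17 embryos. Its estimate was not the largest without control 3, control 6, HU 3, HU 7 or HU 8, nor with limma-voom. Its control embryos ran from 11.8 to 76.2 CPM with a median of 31.6, and the HU embryos from 17 to 132 with a median of 32.1. The medians were thus nearly equal, and the difference in means, 37.6 ± 21.8 (SD, n = 9) against 56.1 ± 45.3 (SD, n = 8), came with 3 HU embryos, at 80.1, 111 and 132, above all controls. Ccng1 had a log2 fold change of 0.57 ± 0.43 (SE; interval -0.31 to 1.46), with an adjusted p of 0.874 in edgeR. Without HU 7 it was 0.25, below the 0.29 of Sesn2 and the 0.36 of Cdkn1a in the same fit. Ccng1 was the most variable member, with a BCV of 0.60.

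Of the 3 members that act in cell death, none differed beyond its spread. Bax (chr7:45461697-45466898, minus strand), which permeabilises the mitochondrial outer membrane, was the member with the fewest counts, 13 to 91 per embryo. It ran from 6.31 to 25.7 CPM in control embryos with a median of 12, and from 4.03 to 27.5 in HU embryos with a median of 16. Both extremes were HU embryos, numbers 1 and 2. The log2 fold change of Bax was 0.04 ± 0.39 (SE; interval -0.77 to 0.85; edgeR adjusted p 0.991).

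Trp53inp1 (chr4:11156431-11174379, plus strand), a nuclear protein that promotes p53-dependent death and autophagy, ran from 120 to 235 CPM in control embryos with a median of 152, and from 130 to 210 in HU embryos with a median of 165. The HU range lay within the control range. Its mean was 165 ± 41.6 (SD, n = 9) in control and 165 ± 26.6 (SD, n = 8) in HU embryos, and the interval of its log2 fold change ran from -0.35 to 0.35 (edgeR adjusted p 0.999).

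Ei24 (chr9:36779159-36797393, minus strand), an endoplasmic reticulum protein induced by p53 and needed for autophagy, ran from 79.9 to 201 CPM in control embryos with a median of 145. Its HU embryos ran from 87.6 to 324 with a median of 151. Embryos HU 4, 5 and 7, at 324, 242 and 225, lay above all controls, and the other 5 HU embryos at 87.6 to 152 lay inside the control range. The log2 fold change was 0.16 ± 0.24 (SE; interval -0.35 to 0.67; edgeR adjusted p 0.933). HU 4, 5 and 7 were among the 5 embryos with a high 2-cell score; with that score as a covariate, an alternative added after seeing the data, the Ei24 estimate was -0.20 ± 0.21 (SE; adjusted p 0.995).

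The sestrins are stress-induced proteins that restrain mTORC1 signalling and limit oxidative damage. Their SD was larger between HU embryos than between controls, as was that of Cdkn1a, Ccng1 and Ei24. The SD of Ccng1 was 21.8 CPM in control and 45.3 in HU embryos, and that of Ei24 39.1 and 82. The other members had a smaller SD in HU embryos, and no difference in spread was tested. Sesn1 (chr10:41809935-41908424, plus strand) ran from 30.4 to 75.1 CPM in control embryos with a median of 53.8, and from 18.8 to 152 in HU embryos with a median of 45.1. The HU group held the highest embryo (HU 2) and the lowest (HU 8). Its log2 fold change was 0.12 ± 0.32 (SE; interval -0.54 to 0.78; edgeR adjusted p 0.968). Without HU 2 it was -0.24, so the sign of this estimate rests on that embryo.

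Sesn2 (chr4:132492032-132510501, minus strand) ran from 42.1 to 214 CPM in control embryos with a median of 98.9, and from 31.2 to 290 in HU embryos with a median of 163. In HU 2, the embryo highest for Sesn1, Sesn2 was at its lowest of all 17 embryos; 7 of 8 HU embryos lay above the control median, and 3 above every control. The means were 122 ± 54.1 (SD, n = 9) and 168 ± 89.4 (SD, n = 8). Sesn2 had a log2 fold change of 0.46 ± 0.34 (SE; interval -0.24 to 1.17), with an adjusted p of 0.874 in edgeR. Without HU 2 it was 0.62, with an unadjusted p of 0.0424 in edgeR, the one setting in which a member fell under an unadjusted p of 0.05. The 3 embryos above every control, HU 4, 5 and 7, were among the 5 embryos with a high 2-cell score. With that score as a covariate, an alternative added after seeing the data, the Sesn2 estimate was 0.16 ± 0.31 (SE, edgeR adjusted p 0.995).

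**Figure D2:**
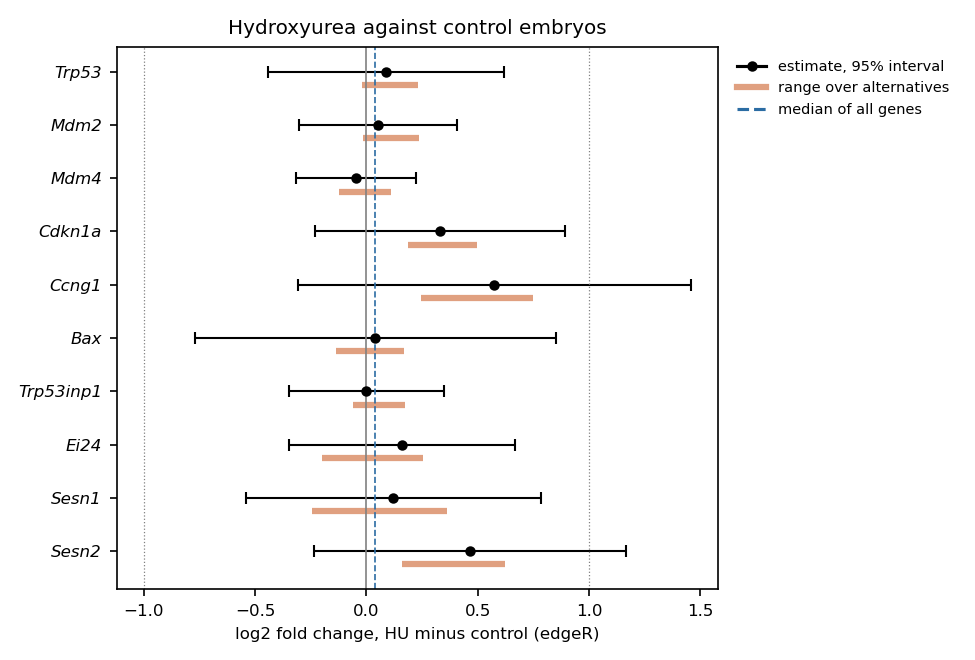
Log2 fold change (horizontal axis, HU minus control) of each member with its 95% interval from the edgeR fit (black), the range of estimates over all alternative settings and left-out embryos (orange) and the median of all tested genes (dashed blue). Every interval spans 0; those of Ccng1 and Sesn2 reach past 1, a doubling, and none reaches -1.

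As a set, 9 of the 10 estimates were above 0, with a median of 0.10, beside a median of 0.04 and 53.6% above 0 among all genes tested. The estimates share embryos and are not independent. For 8 of 10 members the 95% interval lay inside a 2-fold change in either direction; for Ccng1 and Sesn2 it allowed a doubling, with upper limits of 2.75-fold and 2.24-fold. A 2-fold lower level lay outside the interval of all 10. Scaling to the ERCC spike-in RNAs in place of TMM moved the median of all genes from 0.04 to 0.19, and all 10 members were then above 0, Mdm4 included; the members' own median was then 0.25, and 0 members passed. With the 2-cell score as a covariate 6 of 10 members were above 0, with a median of 0.02, and without HU 2 also 6 of 10, with a median of 0.05.

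No single embryo held the extremes of all members, and some embryos held those of several. Control embryo 1 was the lowest control for Trp53, Mdm2, Bax and Sesn2, and the highest for Trp53inp1. Among HU embryos, number 1 was lowest for Trp53, Cdkn1a, Bax and Trp53inp1. HU 2 was highest for Bax, Trp53inp1 and Sesn1 and lowest for Ccng1 and Sesn2. Embryo HU 4 was highest for Cdkn1a and Ei24, while Ccng1 and Sesn2 were highest in HU 7.

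Levels can be compared between genes only per transcript length, for which the authors' FPKM values (fragments scaled to transcript length and library total) were used. Over the 17 embryos Mdm4 led at 271 ± 38.2 FPKM (mean ± SD), within the top 1% of genes by level (percentile 99.3 in both groups). Ei24 followed at 71.4 ± 26.4, and Mdm4 was above Ei24 in 17 of 17 embryos. Next came Cdkn1a at 57.9 ± 26.3, Mdm2 at 48.9 ± 11.3 and Sesn2 at 53 ± 26.2, in the order of their mean log2(FPKM + 1). Trp53inp1 stood at 29.9 ± 5.48 and Trp53 at 22.7 ± 8.67. The lowest were Bax at 17.5 ± 9.28, Sesn1 at 16.8 ± 9.03 and Ccng1 at 13 ± 9.42. The step from Mdm4 to Ei24 (1.99 on the log2(FPKM + 1) scale) was the only step between neighbours in this order that exceeded the SD of the difference within embryos; the other 8 steps did not. The 9 other members thus followed each other without a step larger than that spread.

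**Figure D3:**
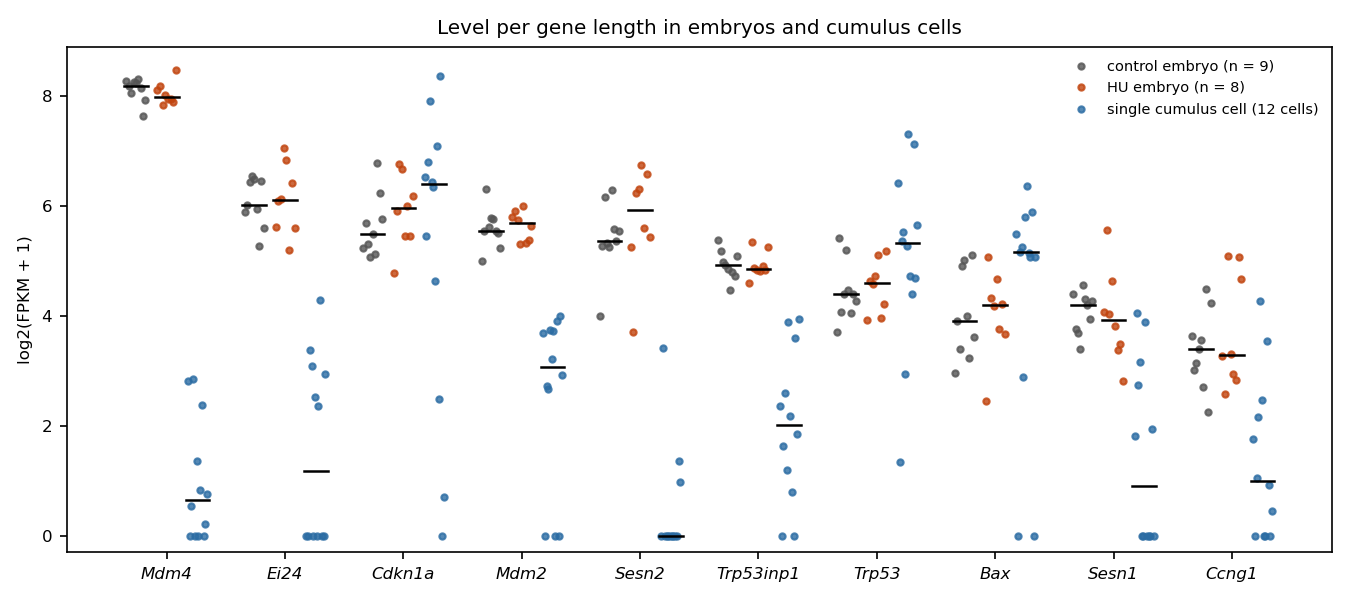
Log2(FPKM + 1) of each member, ordered by mean level in the embryos, in control embryos (grey), HU embryos (orange) and single cumulus cells (blue); points are libraries and black bars medians. Mdm4 is the highest member in embryos and among the lowest in cumulus cells, where many cells list members at 0.

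A wider list of pathway genes gave the same count. It held 71 names, of which 70 were in the table and 57 were expressed highly enough to be tested: 0 passed in either direction and 2 reached an unadjusted p under 0.05, where 5.85% of all genes did. Estimates were above 0 for 34 and below for 23, with a median of 0.09, beside 53.6% above 0 and a median of 0.04 among all genes. Among the 25 tested kinases, modifiers and cofactors (16 above 0, 9 below, median 0.15), Atr, the kinase that senses stalled replication forks, averaged 7.88 ± 4.50 CPM in control and 14.7 ± 8.42 in HU embryos (SD, n = 9 and n = 8). Its log2 fold change was 0.89 ± 0.42 (SE), with an unadjusted p of 0.0445 and an adjusted p of 0.830 in edgeR, and 8 of 8 HU embryos lay above the control median. Ppp1r13b, which encodes the p53 cofactor ASPP1, averaged 23.1 and 33.3 CPM, a log2 fold change of 0.53 ± 0.25 (SE; unadjusted p 0.0471, adjusted p 0.835, edgeR). Rchy1, a further ubiquitin ligase of p53 and the most abundant of this group, averaged 465 and 419 CPM.

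The p53 family members Trp63 and Trp73 had estimates of -0.56 and -0.20. Of 7 tested arrest targets, 3 were above 0 and 4 below: Gadd45a was at 0.47, Gtse1 at 0.41 and Plk2 at -0.68. Apoptosis targets had 5 above 0 and 3 below. The smallest unadjusted p among them, 0.0539, was that of Apaf1, the scaffold of the apoptosome, at 0.60 ± 0.30 (SE; adjusted p 0.835, edgeR). Zmat3 was at 1.06 ± 0.66 and Siva1, the most abundant of them, at -0.25 ± 0.16. Among 15 genes of repair, metabolism and other roles, 10 were above 0 and 5 below. Tigar, which diverts glucose breakdown towards antioxidant supply, was at 0.59 ± 0.30, and Rrm2b, a p53-induced subunit of ribonucleotide reductase, the enzyme that HU inhibits, was at -0.32 ± 0.17, where 1 of the 8 HU embryos exceeded the median control embryo (SE; edgeR adjusted p 0.835 for each). Rps27l, the most abundant, was at -0.17. Genes too low to test included Pmaip1, Fas, Perp, Phlda3 and Cdkn2a.

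No pair of members passed a test of varying together from embryo to embryo. After each group was centred on its own mean, 0 of 45 pairs passed by Pearson's r or by Spearman's rho. These were 2-sided permutation tests of 100000 draws within groups, with Benjamini-Hochberg adjustment over 45 pairs. The smallest adjusted permutation p was 0.791 for r and 0.588 for rho. The r values ran from -0.44 (Trp53inp1 with Sesn2) to 0.55, with a median of 0.07, and 28 were positive and 17 negative. Bax and Ei24 gave the highest, r = 0.55 and rho = 0.60, with r = 0.62 within control and 0.52 within HU embryos (unadjusted permutation p 0.0243 for r, adjusted 0.791). Trp53 with Bax gave r = 0.46, whereas Trp53 with Cdkn1a gave 0.07 and with Mdm2 0.11. Mdm2 and Cdkn1a, both classical targets, had a negative r of -0.41 and rho of -0.55 (unadjusted permutation p for rho 0.0281). Cdkn1a with Ccng1 gave r = 0.31.

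**Figure D4:**
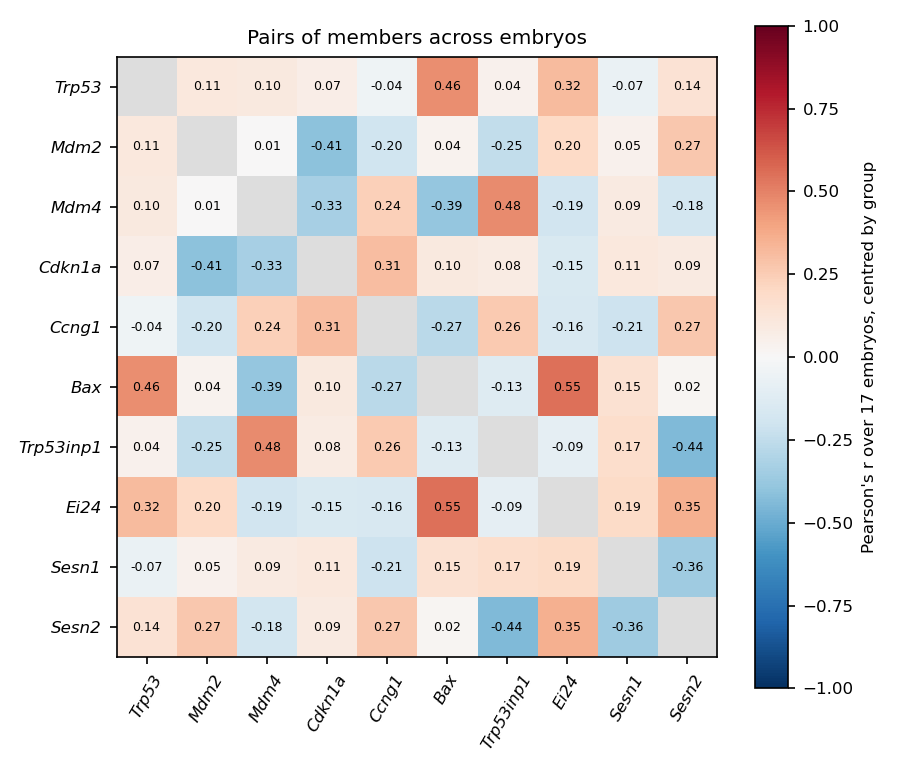
Pearson's r of log2(TMM CPM + 1) for each pair of members over 17 embryos, with each group centred on its own mean; red is positive and blue negative. The extremes are 0.55 (Bax with Ei24) and -0.44 (Trp53inp1 with Sesn2), and 0 of 45 pairs passed the adjusted test.

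The members were also set against 3 measures of the embryos: sequencing depth, the mitochondrially encoded share of counts and the 2-cell score. Of 30 relations, 0 passed (smallest adjusted p 0.0687, the same permutation test) and 5 had an unadjusted p under 0.05. The smallest p was that of Sesn1 with the mitochondrial share, with r = 0.58 (permutation p 0.00229, adjusted 0.0687) and rho = 0.69 (adjusted p 0.108). Without the 2 embryos farthest from the median share r was 0.71, and it was 0.62 within control and 0.77 within HU embryos. Mdm2 had r = -0.64 with the log10 gene count (permutation p 0.0117, adjusted 0.117), -0.80 within control and -0.27 within HU embryos, and -0.49 without the 2 farthest embryos. Control 3, the embryo highest for Mdm2, had the fewest gene counts of the embryos (1801261). It also had the highest 2-cell score (7.52), so depth and score cannot be told apart in it. Trp53 with the gene count gave r = -0.46 (adjusted p 0.291), with -0.86 within HU and -0.24 within control embryos, and -0.81 without the 2 farthest.

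Because the 2-cell score fell into separate sets of embryos, its relation to the members is given only within the set of 12 embryos with the lower score, without centring; the set of 5 was too small. Over all 17 embryos Ei24 had a permutation p of 0.00588 with this score (adjusted 0.0882), the second smallest of the 30 relations, and Sesn1 one of 0.501 (adjusted 0.778). Within the set of 12, Ei24 gave r = 0.35 (permutation p 0.257, adjusted 0.551 over 10 members). Sesn1 gave r = 0.80 (permutation p 0.00458, adjusted 0.0458) but rho = 0.59 (adjusted p 0.471), and r = 0.69 without the 2 farthest embryos. The rank test did not pass, the sets were defined after seeing the scores, and Sesn1 did not pass over all 17 embryos.

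**Figure D5:**
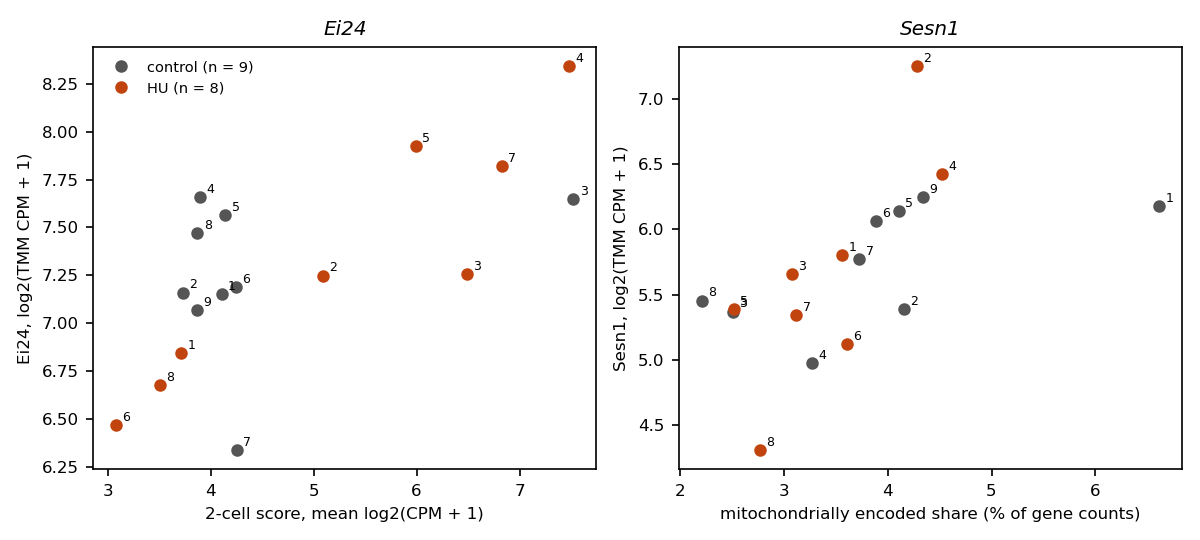
Left, Ei24 (log2(TMM CPM + 1)) against the 2-cell score; right, Sesn1 against the mitochondrially encoded share in percent of gene counts; numbered points are 9 control (grey) and 8 HU (orange) embryos. The 5 embryos with a score of 6.00 or more lie apart on the left; on the right control embryo 1 holds the highest share, 6.61%.

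Donor cumulus cells carried the members in other proportions than the embryos. Counts were summed over the 12 cells (24058974 gene counts), expressed as CPM with an exact Poisson 95% interval that covers counting error only, and set against the mean CPM of control embryos without a test. A level at least 4-fold apart on the log2(CPM + 1) scale counts as a difference here. By that measure 6 of 10 members were lower in the cells and 0 higher, where 37.5% of 10051 genes were lower and 9.31% higher. The ribosomal RNA precursor gene Rn45s moved with this comparison, taking 49.3 to 86.6% of gene counts in the cells and 15.2 to 32.5% in the embryos, and the median log2 ratio of all genes was -1.25. An alternative added after seeing the data left out Rn45s and the mitochondrially encoded genes; with it the median was -0.19, 25.8% of 11405 genes were lower and 18.6% higher, and the members counted 3 lower and 1 higher.

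Mdm4 stood farthest apart, with 14.6 CPM (13.1 to 16.2) in the cells against 2039 ± 276 (SD, n = 9) in control embryos, a 139-fold lower level, or 72.6-fold without Rn45s and mitochondrial genes. It had no count in 4 of 12 cells and at most 45.9 CPM in a cell. Mdm2 was at 25.6 CPM (23.6 to 27.7) in the cells, 5.86-fold lower than in control embryos and 3.03-fold lower without Rn45s and mitochondrial genes.

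Trp53 was detected in 12 of 12 cells, the one member of which this was so. Its cells ran from 2.85 to 291 CPM with a median of 72.5, a wider range than that of the embryos. The lowest was cell 2, where Rn45s took 86.6% of gene counts. The sum gave 87.8 CPM (84.1 to 91.7), 2.12-fold higher than in control embryos and 4.10-fold higher without Rn45s and mitochondrial genes. Cdkn1a was the most abundant member in the cells, at 167 CPM (162 to 172) in the sum and 0 to 662 CPM in single cells. A count was present in 11 of 12 cells, and the highest CPM was in cell 10, the library with the fewest gene counts (317195). Cdkn1a was 1.57-fold higher than in control embryos (3.03-fold without Rn45s and mitochondrial genes). Bax, detected in 10 cells, was at 32.1 CPM (29.9 to 34.4), 2.10-fold higher (4.12-fold without those genes; log2 ratio of CPM + 1, 1.99). Trp53, Cdkn1a and Bax were the 3 members with a ratio above 0 on both scales.

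Sesn2 was nearly missing from the cells, with 45 counts in 3 of 12 cells, 80% of them in cell 2, and 1.87 CPM (1.36 to 2.50), 64.5-fold lower than in control embryos (33.8-fold without Rn45s and mitochondrial genes). Without cell 2 the log2 ratio was -6.44 in place of -5.41. Ei24 was at 11.7 CPM in 6 cells, 13.4-fold lower (6.92-fold without those genes). Trp53inp1 was at 25 CPM, 6.52-fold lower (3.41-fold), with 50.2% of its counts in cell 6; without that cell its log2 ratio was -3.36 in place of -2.66. Sesn1 was at 12.6 CPM, 4.30-fold lower (2.26-fold), and Ccng1 at 12.8 CPM, 2.88-fold lower (1.52-fold). Scaling to the ERCC spike-in counts lets the amount of RNA in a cell or an embryo enter the value. On that scale all 10 members were at least 4-fold lower in the single cells than in control embryos. Trp53 and Bax were least apart (log2 ratios -2.54 and -2.52) and Mdm4 most (-10.69). The median of all genes with a count in both cells and control embryos was -4.66, so most genes were also at least 4-fold lower.

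The genes whose levels followed a member most closely across the 17 embryos (Spearman's rho after centring by group, 8610 genes searched, the 3 highest given with no test) were Xrcc6bp1, Slc2a8 and Jup for Trp53, with rho of 0.78, 0.77 and 0.73. For Mdm2 they were Cct2, Ndufc2 and Med17, at 0.75, 0.75 and 0.74. For Cdkn1a they were Kansl3, Rpp25 and Ehmt2, at 0.87, 0.76 and 0.75. None of these 9 genes is a member or on the wider list.

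Some reads may be shared with other loci. Annotated genes without a row in the table overlap Mdm4, Cdkn1a, Bax, Ei24, Sesn1 and Sesn2, on either strand, and processed copies of Trp53 and Mdm4 exist without rows; the library method does not mark strand, so reads from these were not separable and the levels of these members are uncertain to that extent.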

How the data were processed

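Full-length cDNA of single embryos and cells was made by Smart-seq2, which marks neither strand nor molecule, so Poisson intervals cover counting error only. Per the submitters' processing notes, the authors used FastQC, STAR 2.7.3a and R 4.0.2 with mm10; how reads were counted, on which annotation and strand, was not stated in the sources used here. The authors deposited raw counts per gene (24540 rows, 29 libraries) and FPKM values; FPKM equalled count over library total and gene length for 18588 of 18588 genes compared (tolerance 0.001). Library sizes excluded the 92 ERCC rows.

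Groups came from the sample labels. Counts of the 17 embryos were fitted with edgeR 4.0.16 (R 4.3.3), using its filterByExpr filter, TMM factors and quasi-likelihood F test (Benjamini-Hochberg over 11476 genes, threshold 0.05). Correlations used numpy 2.4.6 and scipy 1.17.1. Scripts were tested on simulated data. Alternatives were DESeq2 1.42.0, limma 3.58.1 (voom, and log2(FPKM + 1) with a pseudocount of 1), other scalings and filters, all 3 groups in 1 fit, a replicate block, each embryo or cell left out, and 4 added after seeing the data. For cumulus cells, genes with at least 10 CPM in either group were compared.

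The members and lists were chosen with earlier results of these data known. Named genes were the 10 members, for each group of the wider list the 2 genes with the smallest p and the most abundant, and the 3 most alike to Trp53, Mdm2 and Cdkn1a among genes of at least 10 mean CPM.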

Additional observations from a re-analysis of the deposited data

Results flagged for a closer look

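Within a group, 3 of 20 sets of embryo values (10 members in 2 groups) held 1 embryo beyond Dixon's 95% limit. That limit was applied to CPM, not to log values. Its chance rate of about 1 in 20 holds for normally distributed values, which CPM need not be. Mdm2 stood at 247 CPM in control embryo 3, with the next embryo at 173. Mdm4 was at 1299 CPM in control embryo 8, with the next at 1909. Cdkn1a was at 203 CPM in control embryo 7, with the next at 133. Each was a control embryo, and each a different one.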

How the results depend on the processing

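Of the 10 members and of the wider list, 0 genes passed under each of 28 alternatives. Over all genes, DESeq2 gave 2 higher and 1 lower in place of 0 and 0, and leaving out 1 embryo 0 to 1 higher (1 without HU 8). The sign of small estimates changed (log2 fold changes): Mdm4 was at 0.11 with ERCC scaling; Mdm2 at -0.0056, Bax at -0.056 and Ei24 at -0.20 with the 2-cell score as a covariate; Bax also at -0.013 without TMM factors. Trp53inp1 was at -0.0072 with DESeq2, -0.0053 without TMM factors, -0.022 without a filter on low counts, -0.0032 with at least 10 mean CPM, -0.019 with 3 groups in the fit and -0.0040 on log2(FPKM + 1); Sesn1 was at -0.066 with limma-voom and -0.086 on log2(FPKM + 1). Leaving out each embryo gave -0.018 to 0.23 for Trp53, -0.014 to 0.16 for Mdm2, -0.14 to 0.17 for Bax, -0.061 to 0.070 for Trp53inp1, -0.028 to 0.24 for Ei24 and -0.24 to 0.24 for Sesn1. It gave 0.25 to 0.75 for Ccng1, 0.19 to 0.50 for Cdkn1a and 0.29 to 0.62 for Sesn2. ERCC scaling let 1 pair pass (Mdm2 with Mdm4, adjusted p 0.022), library sizes without TMM factors let 1 relation pass (Mdm2 with depth, adjusted p 0.0495), and leaving out 1 embryo 0 to 2 (Ei24 with the 2-cell score without control 4 or control 7, Sesn1 with the mitochondrial share without control 4). Per ERCC count 10 members were lower in cumulus cells in place of 6, on a scale where most genes were lower as well. On the CPM scale 5 to 6 were lower when 1 cell was left out. The cause was not tested.

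Embryos of 8 numbers shared by the groups showed little likeness by number. The correlation of same-numbered embryos ran from -0.10 to 0.18, 1 of 8 was over 0.1, and 1 of 8 correlated best with its own number. The labels do not say whether same-numbered embryos were handled together, and these correlations cannot decide it. With the replicate block 0 genes passed and Sesn1 was at -0.053; the same embryos without the block (control 9 left out) gave Bax at -0.012. Low counts limit Bax most, with 13 to 91 per embryo.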
